A study of Mus musculus with 16 samples.

Results

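Sarcomeric myosin heavy chains are the motor proteins of the thick filament in striated muscle. The 8 genes described here are Myh1, Myh2, Myh3, Myh4, Myh6, Myh7, Myh7b and Myh8, chosen by name as the rows of both count tables whose Ensembl identifiers carry these symbols, 8 of the 49585 genes counted. They were followed in 16 RNA-seq libraries of C2C12 cells. These mouse myoblasts divide in rich medium, then stop dividing and fuse into multinucleated myotubes once serum is withdrawn.

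The first experiment held WT and AMPK-KO cells at d0 (day 0, proliferating myoblasts) and d8 (day 8 of differentiation), with 2 libraries in each of 4 groups. AMPK-KO cells lack both catalytic alpha subunits of the energy-sensing kinase AMPK (Prkaa1 and Prkaa2), which were edited with CRISPR/Cas9, and the labels do not tie the libraries to a knockout line. The second experiment was done at d0 on the AMPK-null background, so that no library in it had AMPK. Its cells carried a FLAG-BirA tag knocked into the endogenous gene of TET2, an enzyme that oxidises 5-methylcytosine, either on the wild-type protein (TET2-WT) or together with the S97E substitution, a stand-in for a phosphorylated serine (TET2-S97E). Each TET2 genotype had 2 clones with 2 libraries each, and the 2 libraries of a clone share that clone. Library totals ran from 17883417 to 24663079 counts in the first table and from 19801909 to 37790358 in the second. The study worked with independent AMPK-KO lines, so the AMPK-KO duplicates may be different lines. Because the sources do not say whether duplicate libraries were separate cultures, p-values measure only the spread between these libraries. No library was a copy of its partner: the chi-square between replicates, per degree of freedom, lay between 29.4 and 107.2.

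Each heavy chain gene encodes a motor with its own speed of contraction, and muscle fibres are typed by the one they express. Embryonic (Myh3) and perinatal (Myh8) chains are made first, and the adult fast chains IIa (Myh2), IIx (Myh1) and IIb (Myh4) take over in fast muscle. Myh7 encodes the slow chain of slow fibres and the heart, Myh6 the atrial alpha chain, and Myh7b an ancient member of the family, known also for the microRNA in its intron.

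In GRCm38 with the GENCODE M21 annotation, 5 of the genes form a cluster on the plus strand of chromosome 11. Myh3 lies at chr11:67078300-67102291, Myh2 at chr11:67171027-67197517, Myh1 at chr11:67200052-67224575, Myh4 at chr11:67238029-67260446 and Myh8 at chr11:67277124-67308634. Myh6 (chr14:54941921-54966927) and Myh7 (chr14:54970684-54994626) are neighbours on the minus strand of chromosome 14, and Myh7b (chr2:155611212-155634307) lies on the plus strand of chromosome 2. The annotation places the antisense gene Myhas across Myh1 (chr11:67211256-67237573, minus strand).

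Words of 10 or more letters that stood before at least 3 of the 8 genes were sought. They were found before Myh1, Myh2, Myh4 and Myh8 and not before Myh3. Words shared by fewer of the genes, which can include Myh3, are not given. All 5 clustered genes were at or near the limit of detection in AMPK-KO d0 and were counted at d8, as were Myh6, Myh7 and Myh7b. The stretches before the start sites of the 5 clustered genes are shown. They are from RefSeq (GRCm38.p6), read 5′ to 3′ on the plus strand, and each ends before both the RefSeq start site and the annotated gene: Myh3 at chr11:67078050-67078299, Myh2 at chr11:67170777-67171026, Myh1 at chr11:67199852-67200051, Myh4 at chr11:67237562-67237811 and Myh8 at chr11:67276874-67277123. Capitals mark 3 words shared within the set, 2 of which overlap before Myh1 and Myh8.
Myh3: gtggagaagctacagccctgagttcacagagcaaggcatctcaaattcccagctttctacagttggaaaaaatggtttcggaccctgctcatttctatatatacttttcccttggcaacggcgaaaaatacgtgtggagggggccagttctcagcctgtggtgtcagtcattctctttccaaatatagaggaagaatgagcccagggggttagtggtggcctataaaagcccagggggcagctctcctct
Myh2: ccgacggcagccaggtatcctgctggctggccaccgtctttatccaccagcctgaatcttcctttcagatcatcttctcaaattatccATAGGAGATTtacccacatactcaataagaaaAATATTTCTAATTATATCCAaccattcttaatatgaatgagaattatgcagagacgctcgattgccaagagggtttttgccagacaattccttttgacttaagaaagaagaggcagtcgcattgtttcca
Myh1: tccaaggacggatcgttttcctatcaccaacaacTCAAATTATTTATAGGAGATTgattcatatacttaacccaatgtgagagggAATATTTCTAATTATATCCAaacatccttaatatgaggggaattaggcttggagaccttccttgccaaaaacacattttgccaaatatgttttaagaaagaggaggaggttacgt
Myh4: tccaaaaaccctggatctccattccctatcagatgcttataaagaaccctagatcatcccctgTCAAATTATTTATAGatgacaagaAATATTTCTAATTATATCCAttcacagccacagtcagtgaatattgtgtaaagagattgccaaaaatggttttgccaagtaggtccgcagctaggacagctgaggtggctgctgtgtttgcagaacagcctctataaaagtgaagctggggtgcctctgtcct
Myh8: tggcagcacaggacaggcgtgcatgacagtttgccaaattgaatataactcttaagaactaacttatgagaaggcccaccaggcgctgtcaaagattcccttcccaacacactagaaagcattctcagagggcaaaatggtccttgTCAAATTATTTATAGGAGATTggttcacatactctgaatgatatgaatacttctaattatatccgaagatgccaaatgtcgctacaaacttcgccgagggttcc

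The 20-letter word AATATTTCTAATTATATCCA stood before Myh1, Myh2 and Myh4 and in no other of the 32851 promoter windows scanned (250 bases before a start site, both strands), a share of 0.00913%. The 15-letter word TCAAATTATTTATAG stood before Myh1, Myh4 and Myh8, also 0.00913% of windows, and ATAGGAGATT before Myh1, Myh2 and Myh8 and in 0.0396% of windows. A match to the MEF2 consensus overlapped the second word in these same 3 genes, and 2.92% of all windows held one. CANNTG, the E-box of myogenic factors, was found before Myh3, Myh4, Myh6, Myh7, Myh7b and Myh8 and in 66.2% of all windows. TATAAA was found before Myh1, Myh3, Myh4 and Myh8 (12.4% of all windows). The match of Myh8, and a match each of Myh1 and Myh4, lay inside the second word on the other strand. The other match of Myh1, at -32 from its RefSeq start, lies past the printed stretch and inside the annotated gene. CATTCC was found before Myh4, Myh6, Myh7 and the RefSeq start of Myh1, there likewise past the printed stretch and inside the annotated gene (12.6%). A CArG box stood before Myh4 (1.47%). These are matches of letters, and no binding was measured.

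The genes are alike over their transcripts too, which matters for read counts. Coding sequences were 91.64% identical between Myh6 and Myh7, 91.04% between Myh1 and Myh2, 90.18% between Myh1 and Myh4, 80.54% between Myh1 and Myh3, and 69.82% between Myh1 and Myh7b. The share of 150-base words that also occurred in another gene was 6.50% for Myh7, 6.22% for Myh1 (most of them in Myhas), 5.53% for Myh6, 3.59% for Myh2, 1.60% for Myh8, 0.511% for Myh4, 0.306% for Myh3 and 0% for Myh7b. How the counting treated strand and reads with several alignments is not given in the sources used here, so the values of Myh1 and Myhas, and of Myh6 and Myh7, are uncertain to that extent.

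**Figure D1:**
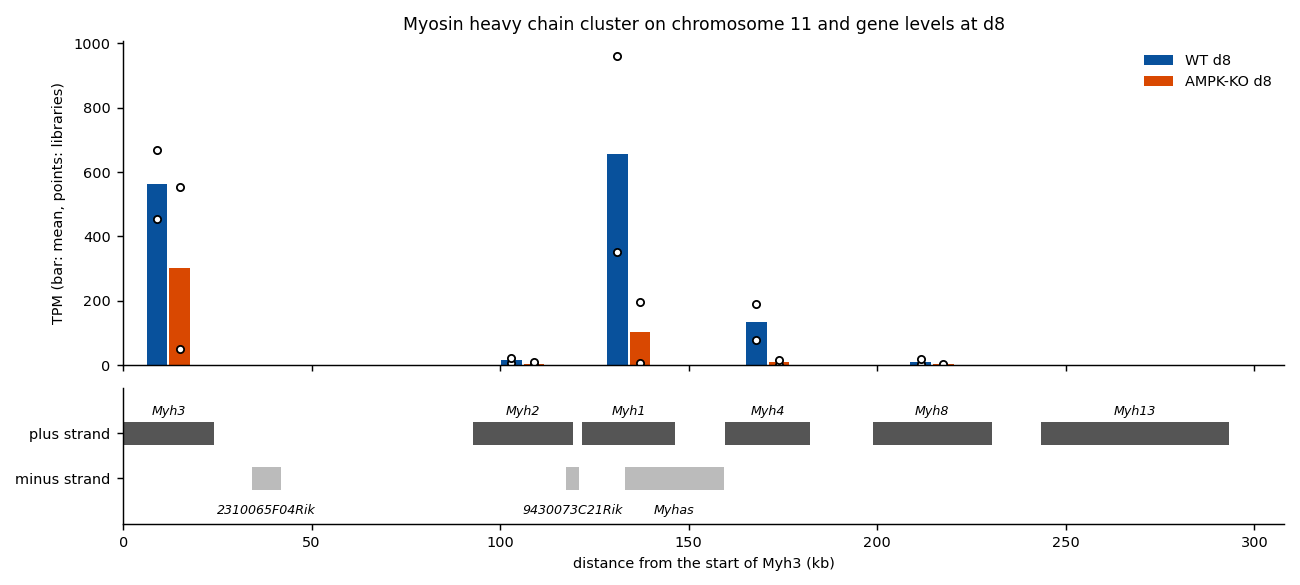
The upper panel plots TPM of the clustered genes at d8 (bars are means of 2 libraries, points are libraries) and the lower panel their positions in kb from the start of Myh3. Myh3 and Myh1 stand highest in WT cells, while Myh2 and Myh8, which flank Myh1 and Myh4, stand low.

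The edited genes were checked first. Prkaa1 had 3287 and 2925 counts in WT d0, 1522 and 1669 in AMPK-KO d0, 2290 and 2661 in WT d8, and 2043 and 1698 in AMPK-KO d8. Prkaa2 had 35 and 33 counts in WT d0, 4 and 9 in AMPK-KO d0, 113 and 216 in WT d8, and 31 and 17 in AMPK-KO d8. Both were lower in every AMPK-KO library than in every WT library of that day, although Prkaa1 RNA was still counted, and counts per gene do not show an edit. Tet2 RNA was counted in all TET2 libraries, with 758, 854, 1275 and 1584 counts in TET2-WT and 256, 675, 156 and 677 in TET2-S97E.

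The cell labels were set against marker lists. Myoblast markers were counted in all libraries, Des and Itga7 highest. In WT cells all 8 tested myotube markers of the 9 listed rose from d0 to d8, where 5.78% of all genes rose. Among them was Acta1 (log2 fold change 5.92, adjusted p = 0.0182, edgeR's quasi-likelihood test). All 5 proliferation markers fell, and the share of all genes that fell is not given here. Of 6 cardiac markers, Hand2, Nppa and Myl7 stood between 0 and 3 counts in every library of the series, the blood marker Ptprc likewise, and the smooth muscle myosin Myh11 between 0 and 0.809 CPM, although the cardiac marker Gata4 (15.2 to 40.5 CPM) and the actin gene Acta2 were counted throughout. The cardiac factor Nkx2-5 lay between 0.3401 and 1.98 CPM in the first experiment and between 2.89 and 6.16 CPM in the second. The cardiac troponin gene Tnni3 had, in the first experiment, 0 to 0.379 CPM at d0, 1.05 and 1.83 CPM in WT d8 and 5.18 and 2.28 CPM in AMPK-KO d8. Blood and endothelial markers summed to between 1.63 and 7.61 CPM.

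The 2 AMPK-KO d8 libraries stood apart from each other before any myosin was compared. Replicate 1 had a summed myotube marker level of 2025 CPM against 10398 in replicate 2, and 290.0 CPM of proliferation markers against 123.7 in replicate 2 and 120.9 and 111.3 in WT d8, while replicate 2 had more marker RNA than either WT d8 library (5316 and 7302 CPM). Which of them represents AMPK-KO d8 cannot be told from 2 libraries, so results that rest on them are given with both and, further on, without each.

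In the first experiment the summed level of the 8 myosin genes was low at d0 and high at d8. It was 16.4 and 17.2 CPM (counts scaled to the size of the library) in WT d0, 0.471 and 0.468 CPM in AMPK-KO d0, 1554 and 3223 CPM in WT d8, and 100.6 and 1439 CPM in AMPK-KO d8. In means this was 142-fold higher at d8 than at d0 in WT cells and 1640-fold higher in AMPK-KO cells, where the d0 total rested on 9 and 10 counts. At d0 the WT mean (16.8 ± 0.523 CPM, SD, n = 2) was 35.8 times that of AMPK-KO cells (0.469 ± 0.00249). At d8 it was 3.10 times that of AMPK-KO cells (2389 ± 1180 against 769.7 ± 946.3), with a 14.3-fold gap between the 2 AMPK-KO libraries. AMPK-KO d8 replicate 2 came near WT d8 replicate 1, and AMPK-KO d8 replicate 1 lay below both WT libraries. In bulk libraries, fewer cells of a type and less RNA per cell cannot be told apart.

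**Figure D2:**
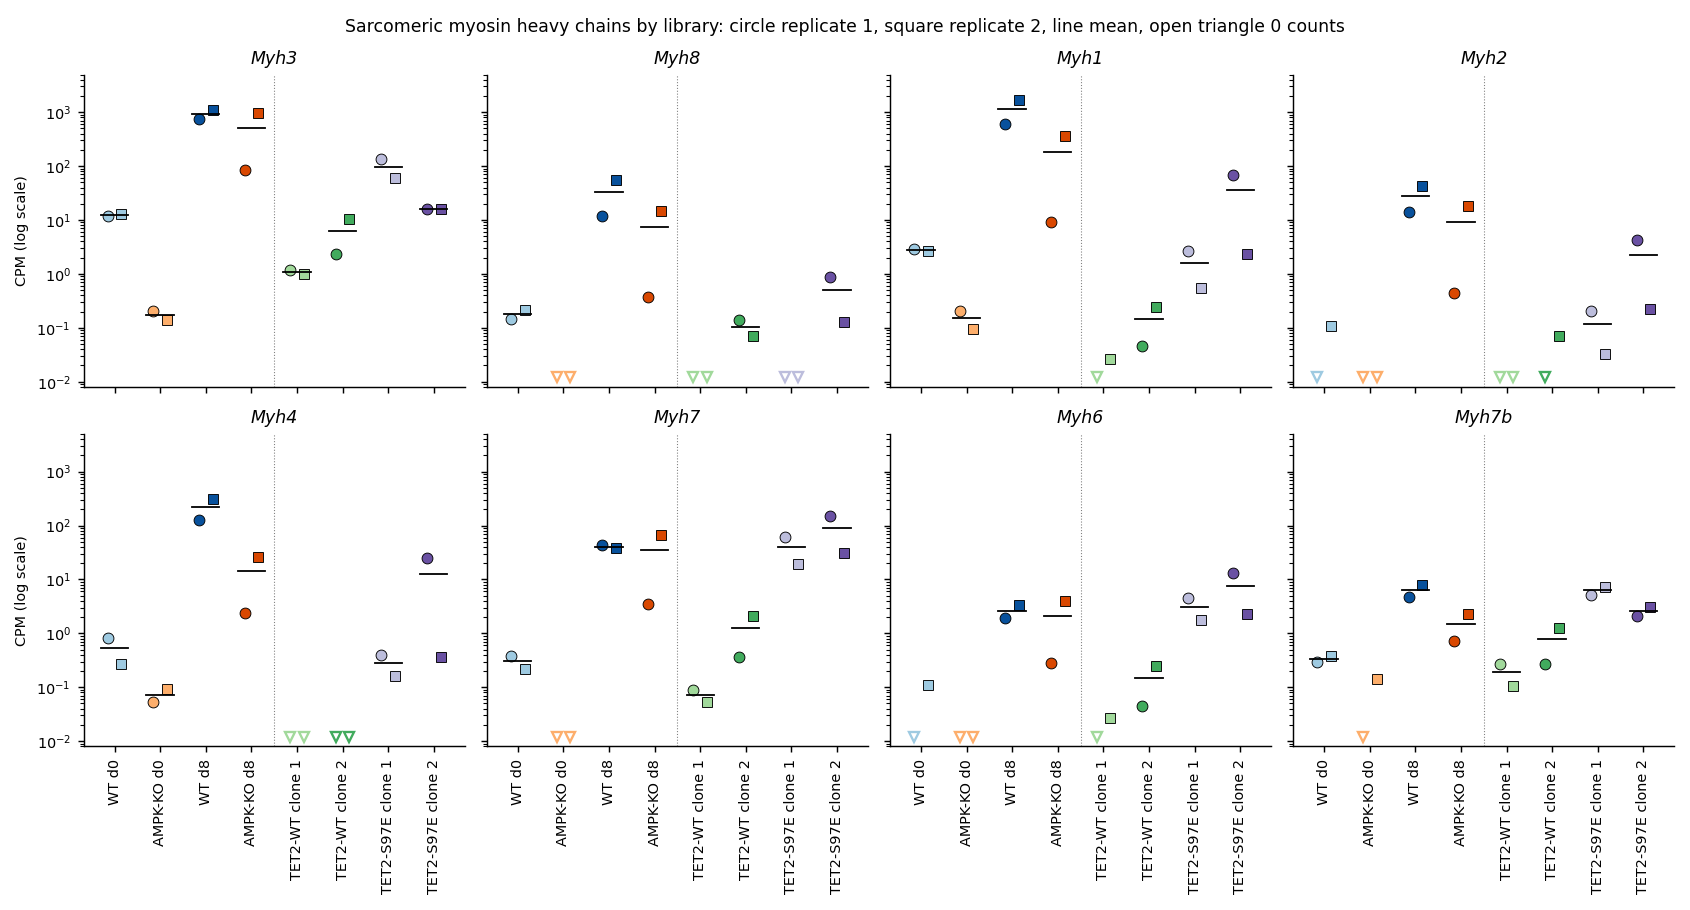
Each panel plots 1 gene in CPM on a log axis against the 8 groups, with circles for replicate 1, squares for replicate 2, lines for means and open triangles for libraries at 0 counts. The dotted line separates the 2 experiments, which were normalized apart. For Myh3 the AMPK-KO d0 libraries lie at 0.140 and 0.209 CPM and the WT d0 libraries at 11.96 and 13.2.

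Myh3, the embryonic chain, was the most counted myosin in WT d0. Its level was 11.96 and 13.2 CPM in WT d0, 0.209 and 0.140 CPM in AMPK-KO d0 (4 and 3 counts), 746 and 1103 CPM in WT d8, and 83.7 and 953 CPM in AMPK-KO d8. The d0 groups did not overlap, and at d8 replicate 2 of AMPK-KO lay between the WT libraries. In WT cells Myh3 rose by 6.20 on the log2 scale from d0 to d8 (SE 0.88, adjusted p = 0.0179, edgeR's quasi-likelihood test with Benjamini-Hochberg adjustment over 14329 genes), and in AMPK-KO cells by 11.50 (SE 1.70, adjusted p = 0.0209). Myh8, the perinatal chain, was at 3 and 4 counts in WT d0 and 0 in AMPK-KO d0, and reached 11.8 and 55.5 CPM in WT d8 and 0.367 and 14.7 CPM in AMPK-KO d8. Every d8 library was thus above every d0 library of its genotype, but the change did not pass the threshold in WT cells (adjusted p = 0.0585) or in AMPK-KO cells (at least 50.7-fold, against 3 counts per library, adjusted p = 0.0856).

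The fast adult chains stood at different levels. Myh1 (IIx) was at 2.85 and 2.71 CPM in WT d0, 0.209 and 0.0935 CPM in AMPK-KO d0, 604 and 1661 CPM in WT d8, and 9.14 and 355 CPM in AMPK-KO d8. Both WT libraries were above both AMPK-KO libraries on each day. Myh1 rose by 8.67 (SE 1.33, adjusted p = 0.0258) in WT and by 10.20 (SE 2.56, adjusted p = 0.0315) in AMPK-KO cells on the log2 scale, in edgeR's test.

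Myh4 (IIb) was at 0.820 and 0.271 CPM in WT d0, at 1 and 2 counts in AMPK-KO d0, at 129 and 311 CPM in WT d8, and at 2.41 and 26.0 CPM in AMPK-KO d8. Its groups did not overlap on either day, and the d8 libraries of AMPK-KO lay 10.8-fold apart. Myh4 rose by 8.61 (SE 1.27, adjusted p = 0.0149) in WT cells, and at least 95.7-fold in AMPK-KO cells (adjusted p = 0.0358, edgeR). Myh2 (IIa) had 0 and 2 counts in WT d0 and 0 in AMPK-KO d0, then 14.0 and 42.0 CPM in WT d8 and 0.449 and 18.3 CPM in AMPK-KO d8. Its d8 levels were at least 182-fold the d0 floor in WT (adjusted p = 0.0516) and at least 63.1-fold in AMPK-KO (adjusted p = 0.0763, edgeR), both short of the threshold.

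The slow and cardiac chains were minor at d8. Myh7 had 8 and 4 counts in WT d0 and 0 in AMPK-KO d0, then 43.1 and 38.1 CPM in WT d8 and 3.55 and 65.4 CPM in AMPK-KO d8. The AMPK-KO d8 libraries fell on both sides of the WT ones. Myh7 rose by 7.03 (SE 1.53, adjusted p = 0.0365) in WT and at least 232-fold in AMPK-KO cells (adjusted p = 0.0330, edgeR). Myh6, its neighbour, had at most 2 counts in any d0 library of the first experiment, and 1.93 and 3.33 CPM in WT d8 and 0.286 and 3.98 CPM in AMPK-KO d8, without passing the test (adjusted p = 0.0783 and 0.0694, edgeR). Myh7b had 6 and 7 counts in WT d0 and 0 and 3 in AMPK-KO d0, and reached 4.68 and 7.98 CPM in WT d8 and 0.734 and 2.28 CPM in AMPK-KO d8. It rose by 4.22 (SE 0.82, adjusted p = 0.0259) in WT and at least 10.2-fold in AMPK-KO cells (adjusted p = 0.0444, edgeR), and its WT and AMPK-KO libraries did not overlap at d8.

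Thus Myh1, Myh3, Myh4, Myh7 and Myh7b rose with differentiation in each genotype, 5 of 8 where 5.78% of all genes tested rose in WT and 4.81% in AMPK-KO cells. In the d0 libraries no member reached the limit of the filter on low counts (0.483 CPM) in AMPK-KO cells, and in WT cells Myh2, Myh6, Myh7, Myh7b and Myh8 did not. These genes passed the filter through d8, so they had to be higher there, and the counts of calls are a description only. By DESeq2 all 8 were called in each genotype, where it called 19.3% of all genes in WT and 17.7% in AMPK-KO cells in either direction. With the replicate number as a block edgeR also called all 8, where it called 16.5 and 12.9% of all genes. The WT calls rested on each WT library, and most were lost when any 1 of them was left out. The total of all genes called moved widely too, so these losses are not read as a result about the myosins. With 1 library left out, the log2 change in WT ran from 5.87 to 6.43 for Myh3, 7.73 to 9.19 for Myh1 and 3.76 to 4.53 for Myh7b. In AMPK-KO cells the calls also changed with the AMPK-KO library left out, as did the total of all genes called. In such fits the single library left in a group is assumed to vary like the others. Without AMPK-KO d8 replicate 1 the log2 changes in AMPK-KO cells were 12.38 for Myh3, 11.17 for Myh1 and 4.85 for Myh7b, and without replicate 2 that of Myh1 was 5.86. Calls in each genotype also changed when a library of the other genotype was left out.

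**Figure D3:**
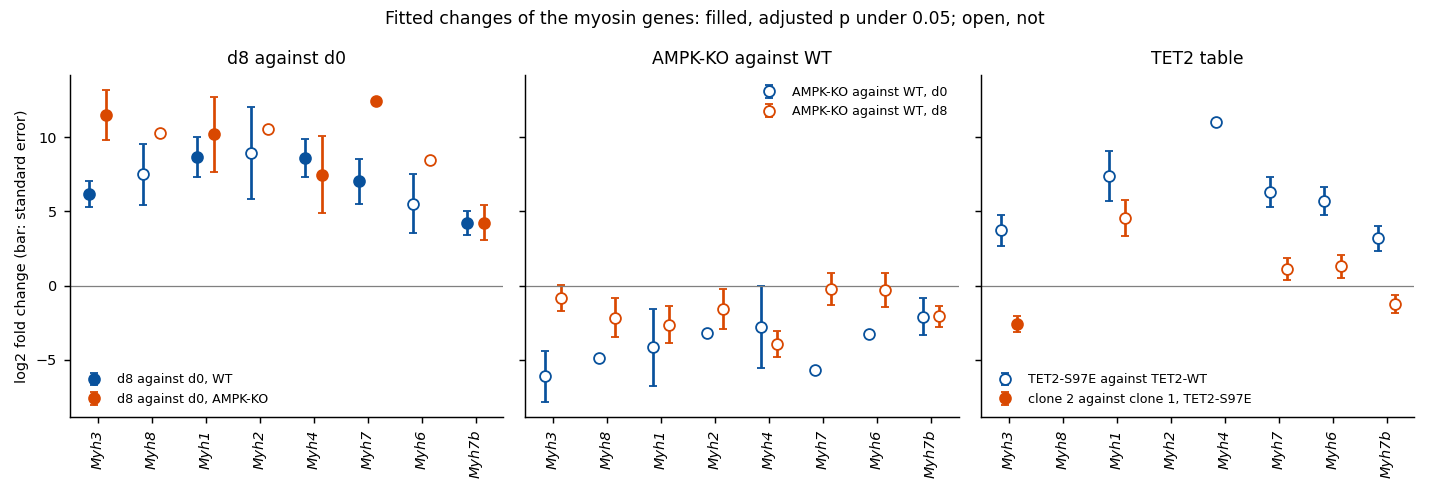
Fitted log2 fold changes of the myosin genes (y axis, bars are standard errors, filled points pass an adjusted p of 0.05), by gene. From d0 to d8 all points lie above 0 and 5 per genotype are filled. Between AMPK-KO and WT none is filled, and in the TET2 table the filled point is Myh3 between the TET2-S97E clones. Points without a bar have a group in which every library is at 0, and their height depends on the prior count.

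Against WT, no myosin gene passed the threshold in AMPK-KO cells on either day, where edgeR called 2.83% of all genes lower at d0, and 3.98% on the later day. With the replicate number as a block, a pairing that no source states, edgeR called Myh3 at d0 and Myh4 at d8, where it called 5.16 and 7.98% of all genes. At d0 Myh1, Myh3, Myh4, Myh7, Myh7b and Myh8 had no overlap between genotypes. These were 6 of 8 members, where 25.7% of all genes were lower without overlap. Myh7 and Myh8, at 0 counts in AMPK-KO d0, could differ in that direction only. Myh4 (17 and 5 counts in WT, 1 and 2 in AMPK-KO) and Myh7b (6 and 7, 0 and 3) also rested on few counts. Myh7, Myh7b and Myh8 passed the filter through d8 alone, so the number without overlap is a description only. Myh3 had the smallest p at d0, with a CPM mean 71.9-fold lower in AMPK-KO cells (log2 fold change -6.13, SE 1.71, adjusted p = 0.0620, unadjusted p = 0.00274, edgeR), and it was the one member DESeq2 called, with 9.72% of all genes. It was the only member with an unadjusted p under 0.05, which 20.9% of all genes had. Myh1 had a log2 fold change of -4.17 (SE 2.61, adjusted p = 0.319, edgeR). The d0 calls also changed with libraries of the other day, when either AMPK-KO d8 library was left out. With 1 library left out, the log2 change at d0 ran from -6.44 to -5.89 for Myh3 and from -4.82 to -3.72 for Myh1.

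At d8 the 3 genes without overlap were Myh1, Myh4 and Myh7b, in a direction that 27.9% of all genes showed. Myh4 had the smallest p, with a CPM mean 15.5-fold lower in AMPK-KO cells (log2 fold change -3.96, SE 0.90, adjusted p = 0.0733, edgeR), and it was the one member DESeq2 called, with 11.6% of all genes. The log2 fold change was -2.64 for Myh1 (SE 1.23, adjusted p = 0.280), -2.07 for Myh7b (SE 0.72, adjusted p = 0.158), -2.16 for Myh8 (SE 1.35, adjusted p = 0.412) and -1.58 for Myh2 (adjusted p = 0.540) in edgeR's test. Myh3 (-0.84, SE 0.87, adjusted p = 0.616), Myh6 (-0.31) and Myh7 (-0.24, SE 1.06, adjusted p = 0.923) lay nearest to 0. At an unadjusted p under 0.05 there were 2 members, Myh4 and Myh7b, where 22.8% of all genes were. The d8 result turned on the AMPK-KO pair. With replicate 2 left out, Myh1, Myh2, Myh3, Myh4 and Myh7 were called lower, where 2.47% of all genes were, and with replicate 1 left out none was called, where 1.20% of all genes were called lower, and Myh3, Myh6 and Myh7 had positive changes of 0.0628, 0.62 and 0.71. The change without replicate 1 was -1.65 for Myh1, -0.59 for Myh2, -1.17 for Myh8, -3.06 for Myh4 and -1.45 for Myh7b, and the lowest values, without replicate 2, were -6.98, -5.97, -6.52, -6.54 and -3.13.

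Whether the rise with differentiation differed between genotypes was asked of the interaction of day and genotype. No gene of the 14329 passed in edgeR's test, 5.09% had an unadjusted p under 0.05, and DESeq2 called 60 genes and no myosin. Myh3 had an interaction of 5.30 on the log2 scale (SE 1.92, adjusted p = 0.892, unadjusted p = 0.0151), a larger rise in AMPK-KO cells that started from 3 and 4 counts. With 1 library left out this difference ran from 2.64 to 6.21, and whether it passed changed without AMPK-KO d8 replicate 1.

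Per merged exon length the embryonic and IIx chains led. In WT d8, TPM (counts scaled also to exon length) was 656 ± 431 for Myh1, 562 ± 151 for Myh3, 135 ± 78.5 for Myh4, 17.4 ± 1.60 for Myh7, 14.4 ± 10.1 for Myh2, 10.5 ± 9.62 for Myh8, 3.51 ± 1.28 for Myh7b and 1.44 ± 0.537 for Myh6 (SD, n = 2). Myh1 and Myh3 were within the spread of their libraries, as were Myh7, Myh2 and Myh8. Merged exon length was 11772 bases for Myh8 and 8616 for Myh7. Their transcripts with the longest coding sequence had 6149 and 6230 bases, so TPM sets these 2 genes lower than transcript length would. In AMPK-KO d8 the order was Myh3 (302 ± 357 TPM), Myh1 (101 ± 136), Myh7 (14.1 ± 17.9) and Myh4 (8.35 ± 9.78), all with spreads as large as their means, since replicate 1 was low in each.

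Shares divide the TPM of a gene by the family total of its library. Myh3 took 74.2 and 78.3% of the family TPM in WT d0, 49.6 and 35.6% in WT d8, and 84.7 and 68.4% in AMPK-KO d8. Myh1 took 16.8 and 15.4% in WT d0, 38.2 and 51.1% in WT d8, and 8.82 and 24.3% in AMPK-KO d8. In both AMPK-KO d8 libraries Myh3 held more and Myh1 less of the total than in either WT d8 library. At d8 these shares also followed the family total. The total was 3223 and 1554 CPM in WT replicates 2 and 1, and 1439 and 100.6 CPM in AMPK-KO replicates 2 and 1. In that order the Myh3 share rose and the Myh1 share fell. The part of the family total in these shares was not tested. As a TPM ratio, Myh1 over Myh3 was 0.771 and 1.44 in WT d8 and 0.104 and 0.356 in AMPK-KO d8, without overlap.

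Myh4 took 8.63 and 10.1% of the family TPM in WT d8 and 2.45 and 1.88% in AMPK-KO d8. Myh7 took 2.01 and 0.864% in WT d8 and 2.53 and 3.30% in AMPK-KO d8. Fast IIb share was lower, and slow share higher, in both AMPK-KO libraries than in both WT libraries. With 2 libraries against 2, an exact permutation test cannot give a two-sided p below 0.333, so shares are given without a test. The depth behind them is 2466 to 68683 family counts, and the counting error is small beside the gap between replicates: the count share of Myh1 had a 95% Wilson interval of 38.3 to 39.4% in WT d8 replicate 1, 51.2 to 51.9% in WT d8 replicate 2, 8.01 to 10.3% in AMPK-KO d8 replicate 1 and 24.2 to 25.2% in AMPK-KO d8 replicate 2. In AMPK-KO d0 the total of 9 and 10 counts was too small to give shares.

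**Figure D4:**
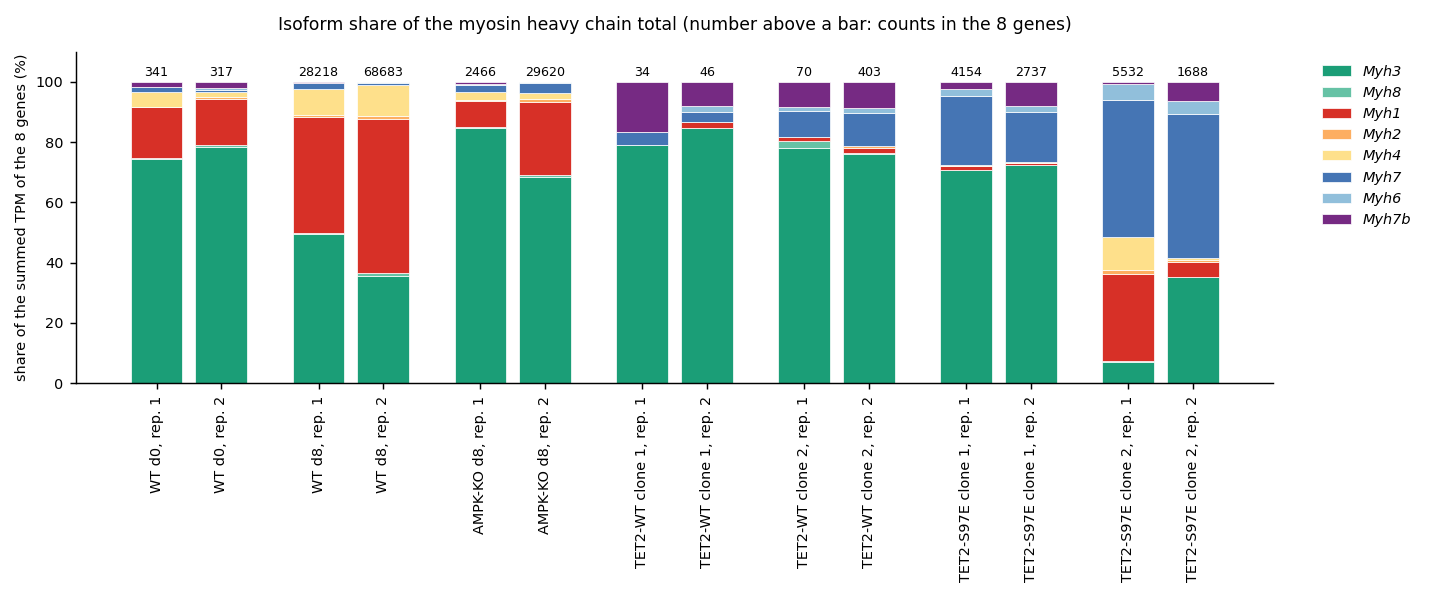
Stacked bars give the share of each gene in the summed TPM of the 8 genes (y axis, %), 1 bar per library, with the family counts above it and AMPK-KO d0 left out. Myh3 fills 68.4 and 84.7% of the AMPK-KO d8 bars, and Myh7 fills 45.4 and 47.6% of the bars of TET2-S97E clone 2.

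In the second experiment the cells were undifferentiated, and the 8 genes together had 34 to 403 counts per library in TET2-WT and 1688 to 5532 in TET2-S97E. The family total was 1.54 and 1.22 CPM in TET2-WT clone 1, 3.21 and 14.3 CPM in clone 2, 209 and 88.7 CPM in TET2-S97E clone 1, and 280 and 55.0 CPM in clone 2. Every TET2-S97E library was above every TET2-WT library. The mitochondrial share of counts moved with it: it was 1.14 and 1.00% in TET2-WT clone 1, 1.38 and 2.15% in clone 2, and 2.03 to 2.29% in TET2-S97E. Its part in the myosin difference was not tested. Clones of 1 genotype and libraries of 1 clone differed too: the mean of TET2-WT clone 2 was 6.34 times that of clone 1, and TET2-S97E clone 2 replicate 1 was 5.09 times its replicate 2.

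Myh7, the slow chain, had 0.0907 and 0.0530 CPM in TET2-WT clone 1, 0.366 and 2.13 CPM in clone 2, 62.3 and 19.4 CPM in TET2-S97E clone 1, and 148 and 30.6 CPM in clone 2. The lowest TET2-S97E library was thus above the highest TET2-WT library. Its mean over clones was 77.9-fold higher in TET2-S97E (log2 fold change 6.31, SE 1.02, n = 2 clones per genotype, adjusted p = 0.277, edgeR), which did not pass the threshold. Leaving out a library or clone moved this change between 5.38 (without TET2-WT clone 1) and 9.64 (without TET2-WT clone 2). Myh6 followed at a lower level, with 0 to 0.248 CPM in TET2-WT, 4.53 and 1.75 CPM in TET2-S97E clone 1 and 13.1 and 2.28 CPM in clone 2, 52.1-fold higher in means (5.71, SE 0.95, adjusted p = 0.277, edgeR), with a range of 4.85 to 7.91 on the log2 scale likewise. The TPM ratio of Myh7 to Myh6 was 6.69 in TET2-WT clone 2 replicate 2, between 8.67 and 10.7 in TET2-S97E and between 8.93 and 17.5 in the d8 libraries of the first experiment. Of the cardiac markers, Tnni3 had 0.272, 0.503, 0.412 and 3.94 CPM in TET2-WT and 9.57, 11.6, 10.3 and 7.63 CPM in TET2-S97E. Its mean was 6.83-fold higher in TET2-S97E, short of the threshold (2.78, adjusted p = 0.366, edgeR). The other tested cardiac markers, Nkx2-5 (0.07) and Gata4 (-0.21), overlapped between the genotypes, Nppa, Myl7 and Hand2 were at 0 to 3 counts, and the part of these markers in the Myh6 and Myh7 difference was not tested.

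Myh3 had 1.18 and 1.01 CPM in TET2-WT clone 1, 2.34 and 10.3 CPM in clone 2, 134 and 59.4 CPM in TET2-S97E clone 1, and 16.1 and 15.9 CPM in clone 2. TET2-S97E clone 2 lay closer to the highest TET2-WT library than to clone 1 of its own genotype. Between genotypes the mean was 13.2-fold higher in TET2-S97E (3.73, SE 1.05, adjusted p = 0.382, edgeR), and the fitted change ran from 2.02 without TET2-S97E clone 1 to 5.60 without TET2-WT clone 2. Between the TET2-S97E clones Myh3 was called 6.04-fold lower in clone 2 (log2 fold change -2.59, SE 0.53, adjusted p = 0.0293, edgeR), the only called member of 5 tested, where 2.82% of all genes were called lower and 3.35% higher. The call was lost in 5 of 12 alternatives, without either library of TET2-WT clone 1, without TET2-S97E clone 1 replicate 1 (log2 change -1.89, adjusted p = 0.105, the highest) and without either library of TET2-S97E clone 2.

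Myh1 ran the other way between these clones, with 2.62 and 0.551 CPM in TET2-S97E clone 1 and 69.7 and 2.35 CPM in clone 2, against 0 to 0.248 CPM in TET2-WT. The difference between the TET2-S97E clones was 4.57 (SE 1.20, adjusted p = 0.0763, edgeR) and rested on replicate 1 of clone 2, which was 29.7 times its replicate 2. Between genotypes the mean of Myh1 was 166-fold higher in TET2-S97E (7.40, SE 1.69, adjusted p = 0.3304, edgeR), with a range of 3.95 to 9.58 when a library or clone was left out, lowest without TET2-S97E clone 2 and 4.37 without replicate 1 of that clone. Myh4 had 0 counts in all 4 TET2-WT libraries and 8, 5, 497 and 11 counts in TET2-S97E, at least 91.4-fold higher against a floor of 3 counts per clone (adjusted p = 0.356, edgeR), most of it from the same library. The fitted change of Myh4, which depends on the prior count, went from 11.06 to 6.86 without that library. Without it the clone differences of Myh6 and Myh7 turned from 1.29 and 1.13 to -0.50 and -0.46.

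Myh7b had 0.106 to 1.28 CPM in TET2-WT, 5.14 and 7.39 CPM in TET2-S97E clone 1 and 2.12 and 3.13 CPM in clone 2, 9.11-fold higher in means (3.19, SE 0.85, adjusted p = 0.354, edgeR), with a range of 2.44 to 4.75 on the log2 scale when a library or clone was left out. Myh2 had 0, 0, 0 and 2 counts in TET2-WT and 4, 1, 84 and 7 in TET2-S97E, and Myh8 had 0, 0, 3 and 2 counts against 0, 0, 17 and 4. Neither passed the filter on low counts.

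None of these 6 passed edgeR's test on the 4 clone sums, which called 0 of 15126 genes, while 1575 genes (10.4%) had an unadjusted p under 0.05, among them Myh3, Myh7 and Myh7b. Myh1, Myh4 and Myh6 also had one, but no TET2-WT clone reached the filter's limit for them, so they had to be higher in TET2-S97E. For Myh7 and Myh7b only 1 of 2 TET2-WT clones reached it, so they too passed the filter through TET2-S97E. Calls of these genes are a description only. DESeq2 called 566 genes and 4 of these members, Myh1, Myh6, Myh7 and Myh7b. With the 8 libraries in place of the clones, which treats libraries of 1 clone as independent, edgeR called Myh1, Myh3, Myh6, Myh7 and Myh7b among 938 genes. With TET2-S97E clone 1 left out it called Myh1, Myh4, Myh6 and Myh7 among 124 genes, and with clone 2 left out Myh3 and Myh7 among 184. In TET2-WT, clone 2 had a Myh3 level 2.56 higher than clone 1 on the log2 scale (SE 0.66, adjusted p = 0.108, edgeR), and none of 5 members passed where 0.463% of all genes were called higher, while 3 members, Myh3, Myh7 and Myh7b, had an unadjusted p under 0.05, as 20.5% of all genes did. DESeq2 called Myh3 there, in a fit whose total over all genes is given with the alternatives below.

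The makeup of the family differed between the TET2-S97E clones. Myh3 took 70.7 and 72.3% of the family TPM in clone 1 and 7.01 and 35.2% in clone 2. Myh7 took 23.1 and 16.7% in clone 1 and 45.4 and 47.6% in clone 2. The TPM ratio of Myh7 to Myh3 was 0.326 and 0.230 in clone 1 and 6.47 and 1.35 in clone 2, without overlap. The fast chain Myh1 took 28.9% in replicate 1 and 4.95% in replicate 2 of clone 2, and 1.32 and 0.640% in clone 1. By counts, Myh7 held 53.1% of the family in clone 2 replicate 1 (95% Wilson interval 51.8 to 54.4%) and 55.7% in replicate 2 (53.3 to 58.0%). In TET2-WT, Myh3 took 76.1 to 84.6%, on 34 to 403 family counts.

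By mean TPM the order in TET2-S97E clone 1 was Myh3 (48.5 ± 27.3), Myh7 (14.4 ± 10.9) and Myh7b (2.84), and in clone 2 Myh7 (34.4 ± 31.6), Myh1 (18.7 ± 24.6), Myh3 (8.82 ± 0.0858) and Myh4 (6.97). In both libraries of clone 2 Myh7 was above Myh1 and Myh3, while Myh1 was above Myh3 in replicate 1 only, so the order of the 2 lower genes did not hold beyond their spread.

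The summed level of the 9 myotube markers is given beside the myosin total. It was 185 and 115 CPM in WT d0, 22.7 and 14.1 in AMPK-KO d0, 5316 and 7302 in WT d8, and 2025 and 10398 in AMPK-KO d8. In the second experiment it was 13.1 and 17.3 CPM in TET2-WT clone 1, 39.4 and 283 in clone 2, 5966 and 2024 in TET2-S97E clone 1, and 1943 and 383 in clone 2. The library with more marker RNA was also the one with more myosin in AMPK-KO d8, WT d8, TET2-WT clone 2 and both TET2-S97E clones, and by a small margin in AMPK-KO d0 (0.471 against 0.468 CPM of myosin), whereas in WT d0 and TET2-WT clone 1 it had less myosin. AMPK-KO d8 replicate 2 had more marker RNA than both WT d8 libraries but less myosin. Acta1, the skeletal actin, was the most abundant of the 9 markers except in AMPK-KO d0 replicate 2 and TET2-WT clone 1, where Tnnt3 was. Proliferation markers summed to 244 and 219 CPM in TET2-WT clone 1, 111 and 113 in clone 2, 350 and 204 in TET2-S97E clone 1, and 497 and 409 in clone 2. The part of cell state in the myosin differences was not tested.

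**Figure D5:**
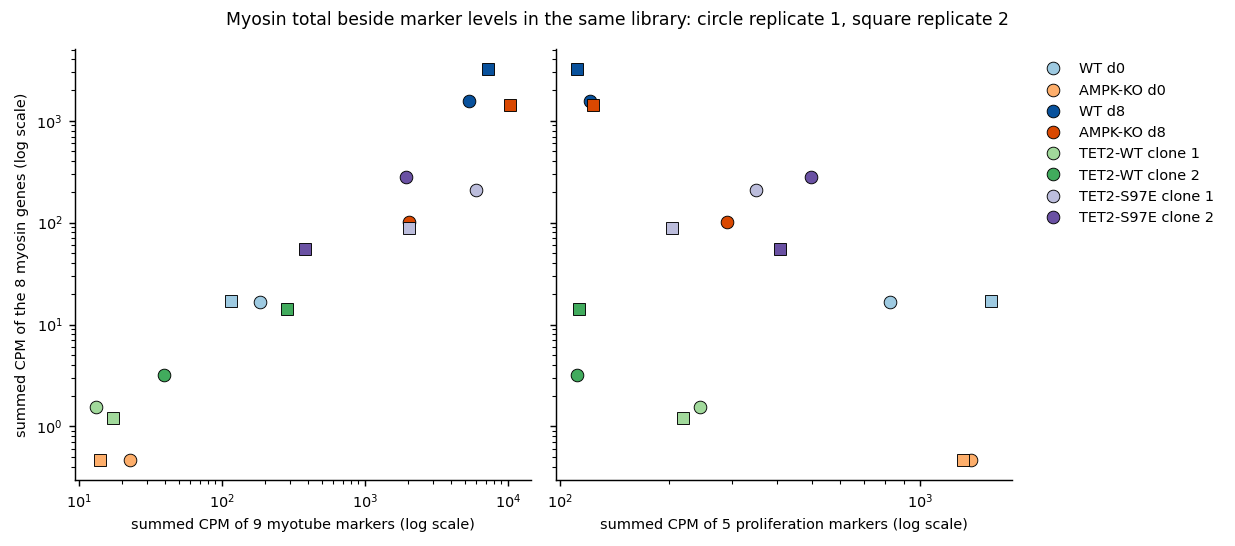
Summed CPM of the 8 myosin genes (y axis, log scale) against the summed CPM of 9 myotube markers (left) and 5 proliferation markers (right) in each library, with the 2 experiments normalized apart. AMPK-KO d8 replicate 1 lies at 100.6 CPM of myosin and 2025 CPM of myotube markers, far below replicate 2 at 1439 and 10398.

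Of 6 other class II genes, Myh9, the main non-muscle chain, was at 1497 to 3349 CPM in all 16 libraries and passed no test, while Myh10 fell by 1.04 on the log2 scale in WT cells with differentiation (adjusted p = 0.0161, edgeR). Myh14, a non-muscle chain, had 1.21 and 1.90 CPM in WT d0, 0 and 0.468 in AMPK-KO d0, 3.58 and 15.7 in WT d8, and 0.245 and 1.56 in AMPK-KO d8. Its d8 groups did not overlap, in a direction that 27.9% of all genes showed. Neither the 6.22-fold higher mean at d8 in WT (adjusted p = 0.177) nor the 10.7-fold lower mean in AMPK-KO d8 (adjusted p = 0.155, edgeR) passed. Myh13, the extraocular chain, had 4 and 0 counts in WT d0, 20 and 15 in WT d8, and 0 and 2 in AMPK-KO d8, likewise without overlap and without passing (adjusted p = 0.149 and 0.139, edgeR). Myh15 and Myh11 were too low to be tested in the first experiment. No other class II gene was called between genotypes.

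The light chains, which bind the lever arm of the heavy chain, rose in part. Of 9 tested, Myl1, Myl4, Mylpf and Myl6b rose in WT (5.13, 7.03, 5.29 and 2.13 on the log2 scale) while the non-muscle Myl6 and Myl9 fell by 0.87 each, and 4 rose in AMPK-KO cells. Against WT, Myl9 was lower in AMPK-KO d0 (-2.38, adjusted p = 0.00842, edgeR), and at d8 Myl9 (-1.63) and Myl12b (-0.97) were lower and Myl6 (0.84) higher. Without AMPK-KO d8 replicate 1 these 3 calls were lost and Myl6b was called higher (1.87). Myl4, the atrial and embryonic light chain, had 552 and 887 CPM in WT d8 and 35.0 and 252 in AMPK-KO d8, without passing the test (adjusted p = 0.135, edgeR).

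Partners of myosin in the thick filament and M-band rose with it. In both genotypes 10 of 13 tested genes rose, where 5.78% of all genes rose in WT and 4.81% in AMPK-KO cells. Among the most abundant were Mybph (6.31 in WT and 9.61 in AMPK-KO cells on the log2 scale), Myom2 (4.12 and 5.99), the giant spring titin Ttn (2.81 and 5.56) and Myom1 (6.25 and 6.51). None was called between AMPK-KO and WT on either day, with medians of -2.10 at d0 and -0.97 at d8. Mybph was at 643 and 1026 CPM in WT d8, and at 108 and 607 CPM in AMPK-KO d8. Between TET2-S97E clones Mylk3 was at least 13-fold higher in clone 2, and the ubiquitin ligases Trim63 (-2.51) and Trim55 (-3.10) were lower.

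Of 8 folding and assembly genes, the muscle-specific ones rose: Unc45b, the myosin chaperone, by 6.16 in WT and 8.66 in AMPK-KO cells, and the methyltransferase Smyd1 by 2.55 and 3.25. Unc45a, the general form, fell by 0.78 in WT. The small heat shock gene Hspb1 was lower in AMPK-KO d0 than in WT d0 (-2.85), and Smyd1 (-2.65) and Hspb1 (-1.21) were lower in TET2-S97E clone 2 than in clone 1.

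Among 21 tested regulators of myosin transcription, 3 were lower in AMPK-KO d0: the myogenic factors Myod1 (-3.29, adjusted p = 0.0147, edgeR) and Myog (-5.36, adjusted p = 0.0116, edgeR), and the TEAD cofactor Vgll2 (-6.17). Myog was at 29.5 and 19.6 CPM in WT d0 and 0.628 and 0.561 CPM in AMPK-KO d0. At d8 4 were lower, Tead4 (-1.86), Prox1 (at least 21.4-fold, with 0 counts in both AMPK-KO libraries), Vgll2 (at least 197-fold, with 2 and 3 counts) and Tbx15 (-1.77). Myod1 and Myog were not among them. Without AMPK-KO d8 replicate 1, Vgll2 and Tbx15 were still called and Tead4 and Prox1 were not. With differentiation Myog, Mef2a, Mef2d, Tead4 and Tbx15 rose and Eya1 fell in WT, and Myod1, Myog and Mef2a were among those that rose in AMPK-KO cells. Between TET2 clones, Myod1 was higher in TET2-WT clone 2 (1.32) and, with Ppargc1a, lower in TET2-S97E clone 2 (-2.36 and -2.28). The lists of Myog, Myod1 and Mylpf overlap, as each of these genes is also a marker.

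The remaining marker lists moved in places. At d0 the myotube markers Myog, Mymk (-5.64) and Mymx (at least 13.8-fold) and the myoblast marker Myod1 were lower in AMPK-KO cells, 3 of 8 and 1 of 5. At d8 no marker of either list was called, and 2 of 7 fibroblast markers were lower, Col1a1 (-4.11) and Lum (-3.98), both of which lost the call without AMPK-KO d8 replicate 1. In AMPK-KO cells 7 of 8 myotube, 2 of 5 myoblast and 2 of 7 fibroblast markers rose with differentiation, where 4.81% of all genes did. So did 1 of 3 tested cardiac markers (Tnni3, 5.13, not called without AMPK-KO d8 replicate 1). In WT 4 of 7 fibroblast markers rose, where 5.78% of all genes did. In AMPK-KO cells 5 of 5 proliferation markers fell. The share of all genes that fell is not given here, so this count is not read as a result. In TET2-S97E clone 2, 4 of 5 myoblast markers and the myotube marker Mymx (-2.59) were lower than in clone 1, where 2.82% of all genes were. The endothelial marker Cdh5 was lower too (at least 8.41-fold), as was 1 fibroblast marker. The smooth muscle marker Lmod1 (2.43) and 2 fibroblast markers were higher, where 3.35% of all genes were. In TET2-WT clone 2, 3 fibroblast markers and Myod1 were higher and Cdk1 (-1.13) was lower. Between the TET2 genotypes no listed gene was called, with a median log2 fold change of 4.40 for myotube markers, 3.37 for the thick filament and 1.15 for light chains, against -0.01 for all genes. Without overlap between clones, Lmod1 (3.87), Acta2 (1.70), Postn (3.03), Col1a2 (0.61), Mki67 (1.68), Top2a (0.91) and Mcm5 (1.19) were also higher in TET2-S97E. The share of all genes without overlap between TET2 genotypes is not given here, so this is not read as a result. Tagln, Smtn, Pdgfra, Dpt, Col1a1, Dcn, Lum, Ccnb1 and Cdk1 overlapped. The part of these markers in the myosin difference was not tested.

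The other lists were fitted again without each AMPK-KO d8 library. Not every changed call is named: from d0 to d8, regulator calls besides those given were also lost with either library left out. From d0 to d8 in AMPK-KO cells, leaving out replicate 1 added calls for Myl2, Cryab, Mef2c, Des and Actn2, all higher at d8, where 3.43% of all genes rose. Leaving out replicate 2 lost the calls of Myom3, Trim55, Mef2a, Itga7, Tnni3, Ccnb1 and Cdk1, where 1.92% of all genes rose and 0.684% fell. At d8 against WT, leaving out replicate 2 added the light chain Myl4 (-4.39), the thick filament genes Mybph (-2.99), Myom3 (-5.40) and Trim54 (-2.35), the factors Myog (-2.45) and Mef2c (-7.66) and the markers Mymx (-2.10) and Actn2 (-7.67) as lower, and Mki67 (1.52) as higher, and lost Myl6, Myl12b and Lum. None of these 9 added genes was called without replicate 1, where the 8 lower ones still had negative changes.

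RNAs of the myosin loci other than the heavy chains had at most 78 counts in any library. The long noncoding RNA 2310065F04Rik, between Myh3 and Myh2, had 10 and 24 counts in WT d8, 1 and 17 in AMPK-KO d8 and 8 in TET2-S97E clone 2 replicate 1. Myhas, antisense to Myh1, had 5 and 30 counts in WT d8 and 0 and 8 in AMPK-KO d8. 9430073C21Rik, antisense across the 3′ end of Myh2 (chr11:67195680-67199234, minus strand), had 0 counts in all d0 libraries of the first experiment, 23 and 78 in WT d8 and 0 and 22 in AMPK-KO d8, higher at d8 in WT without passing the test (adjusted p = 0.100, edgeR). All 3 were highest in WT d8 replicate 2, which also had the most Myh1. Mhrt, the antisense RNA of the Myh7 locus, had at most 1 count in any library, Mir208a and Mir499 had 0, and Mir208b had 3 in TET2-S97E clone 2 replicate 2.

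Genes whose level followed the family total most closely were named by Pearson's r of log2 CPM over 8 libraries. In the first experiment they were the calcium-store genes Casq2 (0.9955) and Ryr1 (0.9954), Mybph (0.9938), the fusion gene Mymx (0.9934) and Cbfa2t3 (0.992). In the second they were Myom2 (0.9894), the fusion gene Mymk (0.9891), the calcium pump gene Atp2a1 (0.9859), Mfsd2a (0.9846) and the creatine kinase Ckm (0.9837). The 8 points of a table fall into its groups, so these values describe the groups as much as the libraries. Casq2, for example, was at 508 and 675 CPM in WT d8, 28.2 and 201 in AMPK-KO d8, 7.52 and 6.40 in WT d0 and 0.262 and 0.327 in AMPK-KO d0.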

How the data were processed

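RNA was measured in 16 C2C12 libraries (8 groups of 2). The authors deposited 2 tables of raw gene counts, not normalized, with 49585 genes each. Per the submitters' processing notes they used bcl2fastq 2.17, Trim Galore 0.4.5, STAR 2.5.3a and featureCounts 1.5.3, with GRCm38 and GENCODE M12. Symbols, exon lengths and loci were taken from GENCODE M21, which held 49326 of the identifiers. Every row was a gene.

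The 8 myosins and the gene lists were chosen with earlier results of these data known. Counts were analysed per table in R 4.3.3 with edgeR 4.0.16 (TMM, filterByExpr, quasi-likelihood test) with Benjamini-Hochberg adjustment over all genes tested and a threshold of 0.05. The first table entered 1 model of 4 groups, in which comparisons share control libraries, and the TET2 table a model of 4 clone groups. TET2 genotypes were compared on counts summed per clone. CPM used TMM library sizes, and TPM used merged exon lengths. A fold against a group at or under 3 counts in each library is a lower bound, computed at that floor. Intervals and floors cover counting error only. Sequence was compared and figures drawn in Python 3.11.15 with edlib 1.3.9.post1 and matplotlib 3.10.9.

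Genes named were the 8 members, all RNAs of the myosin loci, the 5 most abundant genes of each list and the genes called where a list had 5 or fewer, and the 5 genes per table most like the family total. Other genes (the edited genes, Myhas, 9430073C21Rik, Hand2 and genes of the lists given as examples of levels) were named after their values were seen. Lists were described by counts and medians only, and 1 gene that the rule names is not reported here.

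Tested on simulated data with 200 genes shifted by a log2 change of 2, the fits recovered 79.5% for AMPK-KO against WT at d8 (13958 genes), 60.5% for TET2-S97E against TET2-WT (14778 genes) and 90.5% for clone 2 against clone 1 of TET2-S97E (14146 genes). The alternatives were DESeq2 1.42.0 (test and size factors), no filter on low counts, a filter on CPM, a replicate block, only the libraries compared, all 8 TET2 libraries, each library or clone left out, and other units for the shares. The length of the transcript with the longest coding sequence, and the other lists without each AMPK-KO d8 library, were added after seeing the data.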

Additional observations from a re-analysis of the deposited data

How the results depend on the processing

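The rise of Myh1, Myh3, Myh4, Myh7 and Myh7b from d0 to d8 kept its direction under all alternatives run, but the number of calls did not. In the order AMPK-KO against WT at d0, at d8, d8 against d0 in WT, in AMPK-KO, and the interaction, DESeq2 called 1393, 1656, 2762, 2532 and 60 genes and 1, 1, 8 and 8 of the members (none in the interaction). Without a filter on low counts edgeR called 2026, 2503, 3293, 3039 and 449 genes and 5, 6, 8, 8 and 2 members. With only the 4 libraries compared it called 335 genes and 2 members at d0, and 788 genes and 1 member in AMPK-KO. In WT it called 8 members, a count not read as a result about them, since its total over all genes is not given here. The d8 comparison between genotypes is not given for this setting. Between TET2-WT clones DESeq2 gave 894 genes and 1 member, and no filter 1627 and 3. Between TET2-S97E clones these were 1383 genes with DESeq2, and 1680 genes and 7 members with no filter. Between TET2 genotypes no filter gave 113 genes and 2 members, DESeq2 566 and 4, the 8 libraries 938 and 5, and leaving out TET2-S97E clone 1 or clone 2 gave 124 and 4 or 184 and 2. The cause of these differences was not tested.

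Leaving out 1 library at a time gave 17 to 613 genes and 0 to 3 members at d0, 107 to 902 and 0 to 5 at d8, 0 to 2260 and 0 to 8 for WT d8 against d0, 0 to 1737 and 0 to 8 for AMPK-KO, 0 to 6 and 0 to 1 for the interaction, 0 to 313 and 0 to 1 between TET2-WT clones, and 472 to 1014 and 0 to 3 between TET2-S97E clones. Leaving out clones gave 0 to 184 genes and 0 to 4 members between TET2 genotypes. Shares of Myh3 then ran from 35.6 to 49.6% in WT d8, 68.4 to 84.7% in AMPK-KO d8, 70.7 to 72.3% in TET2-S97E clone 1 and 7.01 to 35.2% in clone 2. Those of Myh1 ran from 38.2 to 51.1% in WT d8 and 8.82 to 24.3% in AMPK-KO d8, and those of Myh7 from 16.7 to 23.1% in TET2-S97E clone 1 and 45.4 to 47.6% in clone 2. As shares of counts, Myh3 was 65.5% in TET2-S97E clone 1, and Myh7 25.8% in clone 1 and 54.4% in clone 2. Per transcript length these were 66.2, 25.3 and 53.7%.

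Signs turned for these genes when 1 library was left out. The interaction ran from -1.02 to 3.75 for Myh7b (-0.21, -0.88, -0.27 and -1.02 without WT d0 replicate 2, AMPK-KO d0 replicate 1, WT d8 replicate 1 and AMPK-KO d8 replicate 2), -2.73 to 2.67 for Myh2 (-1.61 without WT d0 replicate 2, -2.73 without AMPK-KO d8 replicate 2), -0.34 to 3.94 for Myh6 (lowest without WT d0 replicate 2), and -2.80 to 2.53 for Myh1 and -1.59 to 4.30 for Myh8 (lowest without AMPK-KO d8 replicate 2). For AMPK-KO against WT at d8, values ran from -3.50 to 0.0628 for Myh3, -3.21 to 0.62 for Myh6 (0.15 without WT d8 replicate 2) and -3.55 to 0.71 for Myh7, lowest without AMPK-KO d8 replicate 2 and highest without replicate 1. Between TET2-S97E clones they ran from -0.50 to 2.15 for Myh6 and -0.46 to 2.22 for Myh7, lowest without clone 2 replicate 1.

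The replicate numbers do not come with a stated pairing, and a group has only 2. Deviations of libraries with the same number had correlations of 0.119 to 0.324 for WT and AMPK-KO cells and of -0.0214 to 0.506 for TET2 cells. With a replicate block edgeR called 740, 1144, 2360 and 1854 genes and 1, 1, 8 and 8 members in the first 4 comparisons, namely Myh3 at d0, Myh4 at d8 and all 8 with differentiation, and 677 genes between TET2-WT clones and 1540 genes and 2 members (Myh1 and Myh3) between TET2-S97E clones. With 8 libraries, genotype and the replicate block it called 858 genes and 3 members between TET2 genotypes.

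Depth limits the d0 values: a member at 3 counts was not distinguishable from absence. With 2 libraries or clones per group, a missed threshold does not show that levels were alike.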
